A study of Homo sapiens with 26 samples.

Results

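The histone gene cluster and the major histocompatibility complex (MHC) lie next to each other on the short arm of human chromosome 6. They were examined here in single-cell DamID data. All 100 kb bins of chromosome 6 from 25700001 to 33500000 (hg19) that had a value were taken. That gave 78 bins, of 26584 with a value and 30376 in all. They were divided by position into the histone cluster (25700001 to 27900000, 22 bins), the extended MHC with its olfactory receptor genes (27900001 to 29600000, 17 bins), class I (29600001 to 31500000, 19 bins), class III (31500001 to 32100000, 6 bins) and class II (32100001 to 33500000, 14 bins). The histone bin at 26800001 to 26900000 was 0 in all 26 cells, so levels rest on 77 bins.

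In DamID the bacterial methyltransferase Dam marks adenines in GATC, and methylated fragments are cut out, amplified and sequenced. The samples were 26 single cells of KBM7, a human chronic myeloid leukaemia line with a nearly haploid genome. All came from 1 clone, 5-8. Every label gives a haploid (1N) state and Dam alone, which marks chromatin it can reach. Dam activity was induced in all of them with 0.5 nM Shield1 for 15 h, and sorting kept the smallest 2% among cells that carried both Fucci reporters of the cell cycle. Lamin B1 appears in the series title but in no sample label, and the labels were used. The design text speaks of 124 cells, and 26 were analysed here. All 26 form 1 group with no untreated or control sample. Stretches of the genome were therefore compared within each cell. SDs give the variation among cells of the same clone, which are not separate cultures, and no test was run over them.

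The histone cluster holds many copies of the replication-dependent histone genes, which are transcribed in S phase. The MHC is named for the genes of antigen presentation. Class I molecules present peptides on nearly all nucleated cells. Class II molecules (HLA-DR, HLA-DQ, HLA-DP) do so on antigen-presenting cells. The class III stretch between them holds no presenting molecule but a dense row of genes for cytokines, complement, heat-shock proteins and housekeeping functions. Olfactory receptor genes, silent in most tissues outside the nose, sit at the telomeric side of class I. Genes are named below as landmarks for the 100 kb bin that contains them in hg19, from textbook knowledge. A bin's value is not a measurement of the gene. A RefSeq table of another build (GRCh38.p14) was used for gene order, gene counts and promoters but not to place genes in bins, and all 73 landmark genes stood in it in the order of their bins.

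Promoter letters are shown for a few landmark genes of high and low bins, picked after the values were seen. The sequences come from RefSeq (GRCh38.p14), not from these cells, and cover 250 bases before the start of each gene, 5′ to 3′ on its strand, with every CG in capitals. H1-4 (a linker histone), TUBB (a beta-tubulin) and HSPA1A (an inducible heat-shock protein) lie in bins with a ratio of 1 or more in 25, 26 and 25 of the 26 cells. OR2W1 (an olfactory receptor) and HLA-DRB1 (the class II beta chain) lie in bins that reached it in 3 and 4 cells. The windows hold 19, 21 and 12 CG for the first 3 genes, against 0 for OR2W1 and 1 for HLA-DRB1. Not all landmark genes follow this contrast. AGER and NOTCH4 have 3 CG each in a bin positive in 22 cells, and HLA-C has 15 in a bin positive in 5.
H1-4, chr6:26156079-26156328, + strand: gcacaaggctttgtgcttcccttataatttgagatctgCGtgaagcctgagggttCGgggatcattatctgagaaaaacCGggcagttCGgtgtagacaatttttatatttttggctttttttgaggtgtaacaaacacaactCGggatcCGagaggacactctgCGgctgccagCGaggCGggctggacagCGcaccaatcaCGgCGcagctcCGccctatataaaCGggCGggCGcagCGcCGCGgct
TUBB, chr6:30720102-30720351, + strand: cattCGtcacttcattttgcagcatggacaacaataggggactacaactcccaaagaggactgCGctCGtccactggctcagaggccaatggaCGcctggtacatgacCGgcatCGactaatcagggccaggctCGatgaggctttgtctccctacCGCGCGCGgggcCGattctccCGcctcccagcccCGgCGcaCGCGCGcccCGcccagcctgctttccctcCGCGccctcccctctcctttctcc
HSPA1A, chr6:31815293-31815542, + strand: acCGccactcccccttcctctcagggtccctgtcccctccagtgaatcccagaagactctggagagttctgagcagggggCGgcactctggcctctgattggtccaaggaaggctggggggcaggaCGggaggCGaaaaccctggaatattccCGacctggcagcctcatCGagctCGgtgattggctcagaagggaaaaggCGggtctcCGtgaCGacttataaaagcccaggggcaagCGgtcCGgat
OR2W1, chr6:29045176-29045425, - strand: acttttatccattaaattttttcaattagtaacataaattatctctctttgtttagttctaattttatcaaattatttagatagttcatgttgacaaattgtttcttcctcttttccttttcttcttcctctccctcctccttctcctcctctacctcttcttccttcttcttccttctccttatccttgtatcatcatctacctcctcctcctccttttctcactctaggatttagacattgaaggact
HLA-DRB1, chr6:32589849-32590098, - strand: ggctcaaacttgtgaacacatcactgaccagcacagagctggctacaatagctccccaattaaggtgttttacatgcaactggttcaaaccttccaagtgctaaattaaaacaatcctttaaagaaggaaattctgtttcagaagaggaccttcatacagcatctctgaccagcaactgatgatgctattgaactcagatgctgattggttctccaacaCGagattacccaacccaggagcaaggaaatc
GATC, the letters Dam methylates, occurs 3 times in the window of H1-4 and in none of the other 4. It is present in 35.8% of all 35116 promoters of that table.

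The deposited value is a ratio of observed over expected signal. The level of a bin or block in a cell is its mean ratio divided by the mean over the 23183 autosomal bins outside chromosome 6 in that cell, so a level of 1 is the autosomal mean. The whole counts behind the ratios totalled 20182 to 178941 per cell over the genome (median 42448.5) and 53 to 780 per cell over this region (median 292.5). The count in a single bin of a single cell is therefore small. No 2 of the 26 cells had identical values. Cells 3 and 10 stood apart on chromosome 6 as a whole, with levels of 1.89 and 1.56 outside the region. Cell 22 had the lowest level of the region. Levels of the region and its blocks are given with and without cells 3 and 10.

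Dam marked the region more than the autosomal mean. Its level was lowest in cell 22 at 0.847, had a median of 1.60 and was highest in cell 10 at 4.38, with a mean of 1.79 ± 0.699 (SD, n = 26 cells). It lay above 1 in 25 of 26 cells. Without cells 3 and 10 the mean was 1.61 ± 0.283 (n = 24). The 77 bins held 7395 counts in the 26 cells together. Relative to expectation that was 1.74 times the autosomal rate (95% exact Poisson limits 1.70 and 1.78). Such intervals cover counting error only and leave out the variation among cells. They are too narrow where counts include PCR copies, which are not independent molecules.

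The region was higher than the rest of its own arm. The other 508 bins of the short arm averaged 1.24 ± 0.327 (SD, n = 26), below the region in 25 cells, with cell 22 as the exception. The long arm (1090 bins) averaged 0.860 ± 0.233 and was below the region in all 26 cells. The 3 Mb just before the histone cluster, at 22700001 to 25700000, averaged 0.819 ± 0.261 and were lower in all 26 cells as well. The 3 Mb just after class II, at 33500001 to 36500000, were higher than the region, at 2.19 ± 0.848, in 23 cells. With every cell thinned to 20000 counts that held in 20 cells, under the 21 of 26 (80%) used here to place a difference on a side. High Dam signal thus went on past the MHC towards the centromere.

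**Figure D1:**
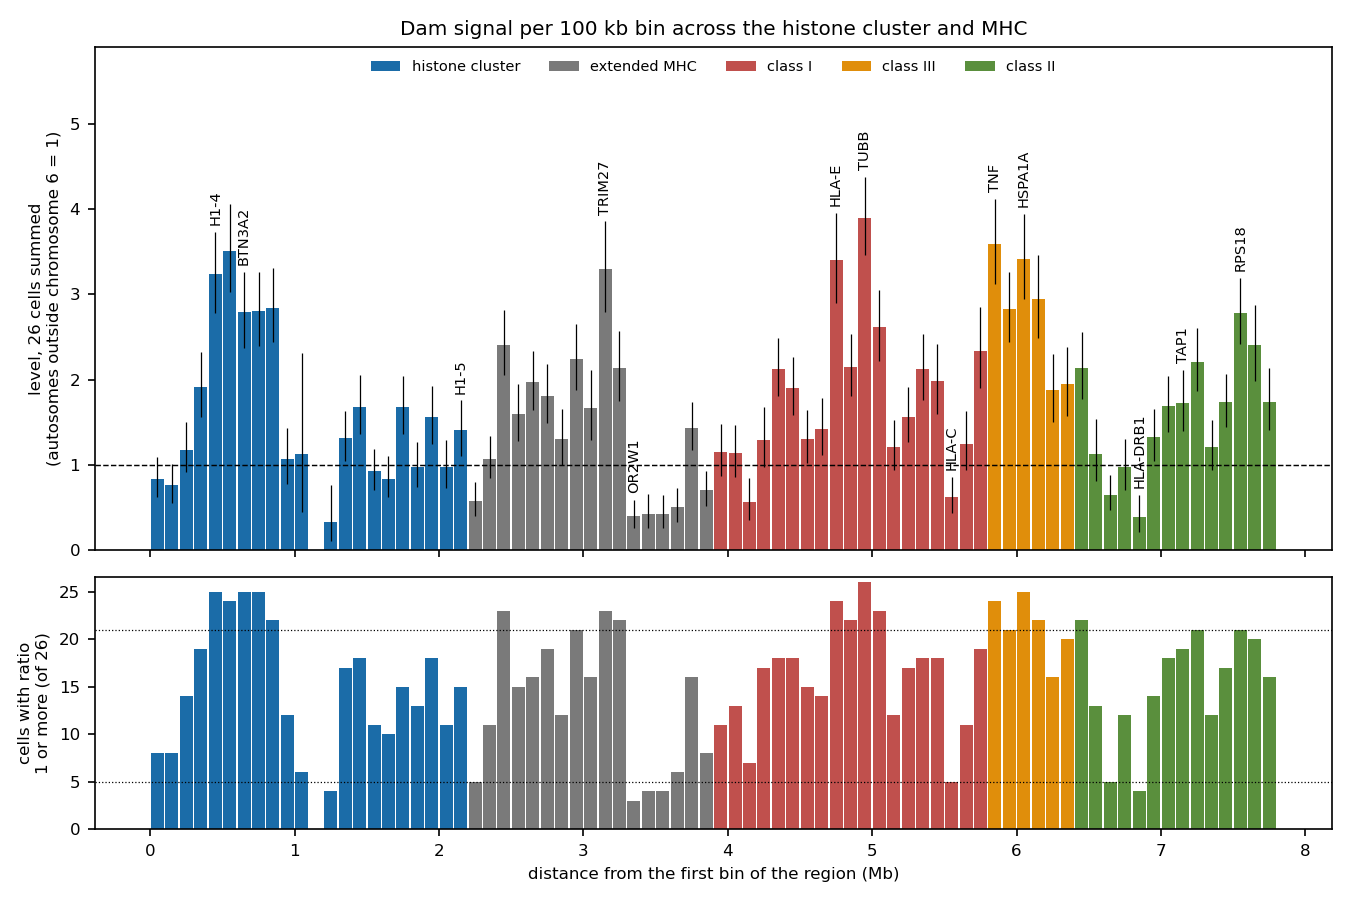
Dam signal of the 77 bins above 0 in at least 1 cell, by distance from the first bin. Upper panel: counts of all 26 cells over expectation relative to autosomes outside chromosome 6 (dashed line at 1), with exact 95% Poisson intervals. Lower panel: cells with a ratio of 1 or more, with dotted lines at 21 and 5 cells. The highest bar is the TUBB bin at 3.90, and the olfactory receptor bins from OR2W1 on up to OR12D2 stand between 0.401 and 0.506.

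Of the 5 blocks, class III was the highest and the only one separated from each of the others. Its level per cell had a lowest value of 0.798 in cell 22, a median of 2.48 and a highest value of 9.06 in cell 10. The mean was 2.98 ± 1.63 (SD, n = 26), and 2.63 ± 0.946 without cells 3 and 10. It exceeded class II in 25 cells, the histone cluster in 24, class I in 23 and the extended MHC in all 26. On the log2 scale class III minus class II was 0.79 ± 0.46. The histone cluster, class I and the extended MHC minus class III were -0.66 ± 0.53, -0.66 ± 0.54 and -0.95 ± 0.41. It also exceeded chromosome 19, the most gene-dense chromosome, which averaged 1.64 ± 0.480, in all 26 cells, and chromosome 17 at 1.46 ± 0.20 in 25. The 6 bins held 916 counts in all and between 4 and 83 per cell. Class III is also the shortest block, and the longer ones mix high and low stretches. Inside the histone block, 6 bins from 26000001 to 26600000, picked after their values were seen, averaged 3.13 ± 1.11.

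The other blocks were close to each other. Class I averaged 1.80 ± 0.710 (0.765 to 4.03, median 1.73). The histone cluster averaged 1.75 ± 0.625 (1.15 to 3.95, median 1.64) and was the only block above 1 in all 26 cells. Class II averaged 1.68 ± 0.821 (0.420 to 4.73, median 1.55) and the extended MHC 1.48 ± 0.669 (0.481 to 4.18, median 1.36). Without cells 3 and 10 these means were 1.64, 1.60, 1.49 and 1.33. None of the 6 differences among these blocks reached 21 of 26 cells. The histone cluster was above the extended MHC in 20 cells, class I above the extended MHC in 19, class I above class II in 17, class II above the extended MHC in 16 and class I above the histone cluster in 15. The histone cluster and class II were each higher in 13 cells. The mean log2 differences of these 6 pairs lay between -0.29 (extended MHC minus class I) and 0.29 (histone cluster minus extended MHC), with SDs of 0.41 to 0.53.

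Against the rest of the short arm, the histone cluster was higher in 26 cells, class III in 25, class I in 23, class II in 22 and the extended MHC in 20. Class I was above the rest of the arm in 20 cells after thinning to 20000 counts, and class II in 19 without the edge bins of the blocks. The extended MHC reached 80% of cells without cell 22 (20 of 25) and without its edge bins (22 of 26). Class III was also above the 3 Mb after class II, in 22 cells by 0.786 ± 1.03. That count was 17 after thinning, 19 on the log2 scale and 20 without edge bins.

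**Figure D2:**
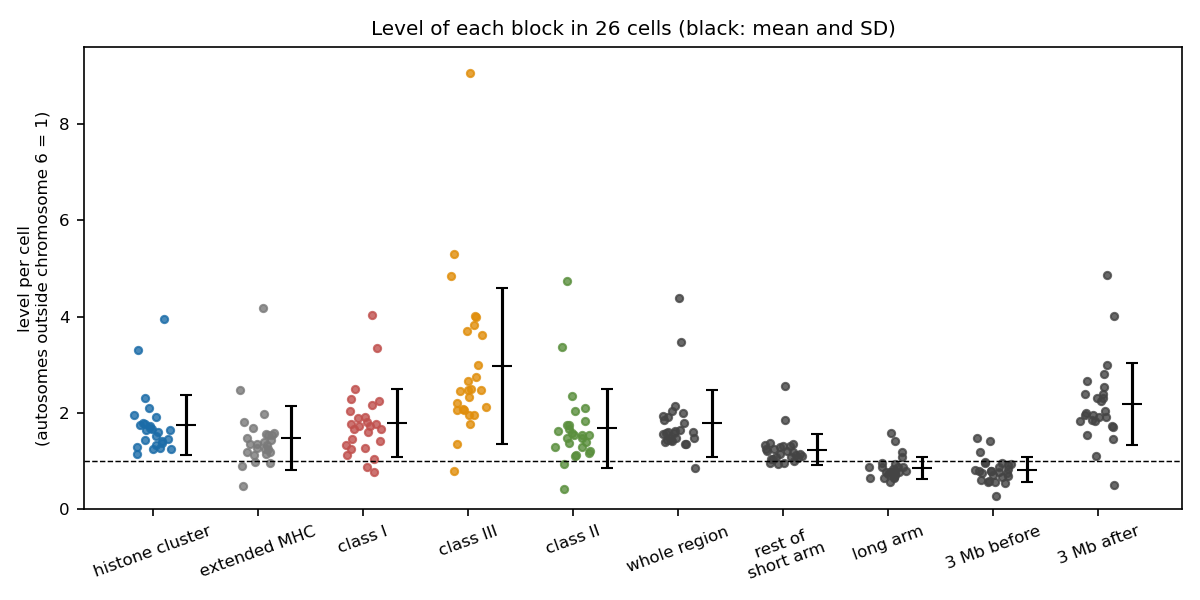
Level per cell (autosomes outside chromosome 6 = 1) of the 5 blocks, the whole region and its surroundings, 1 point per cell, with the mean and SD in black. Class III reaches 9.06 in cell 10, the 3 Mb before the region lie mostly under 1, and the 3 Mb after it average 2.19.

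The blocks differ in how many genes they hold. Between landmark genes near the block edges, the RefSeq table lists 45 protein-coding genes for class III, or 7.50 per bin. It lists 75 for the histone cluster (3.41 per bin, of which 55 are histone genes), 48 for class II (3.43), 51 for class I (2.68) and 34 for the extended MHC (2.00, of which 15 are olfactory receptors). Level and genes per bin were both highest in class III and both lowest in the extended MHC. Between these ends, class I had fewer genes per bin than the histone cluster and class II and the highest mean of the 3. A link was not tested, and the stretches of counted genes need not match the bins exactly.

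Windows of the same number of bins on the other autosomes give the scale of these levels. They overlap and are a description only. Of 22970 windows of 6 bins, 75 (0.327%) were at or above class III, where the median window stood at 0.872. For the extended MHC 15.6% of windows of 17 bins were at or above it, for class II 9.62%, for the histone cluster 6.77% and for class I 6.15%. For the region as a whole, 2.81% of 20217 windows of 77 bins reached its level.

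Bins with a ratio of at least 1 are termed positive in that cell. Over the genome, 5.61% of used bins were positive in at least 21 of the 26 cells, and in this region 20 of 77 bins were (26.0%). At the other extreme, 33.5% of used bins in the genome and 8 of the 77 here (10.4%) were positive in at most 5 cells. The median bin level was 1.68 in the region and 0.786 over all used bins. Class III had 4 of 6 bins positive in at least 21 cells, the histone cluster 5 of 21, class I 4 of 19, the extended MHC 4 of 17 and class II 3 of 14. The extended MHC also had 4 bins positive in at most 5 cells, class II 2, the histone cluster and class I 1 each and class III none.

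**Figure D3:**
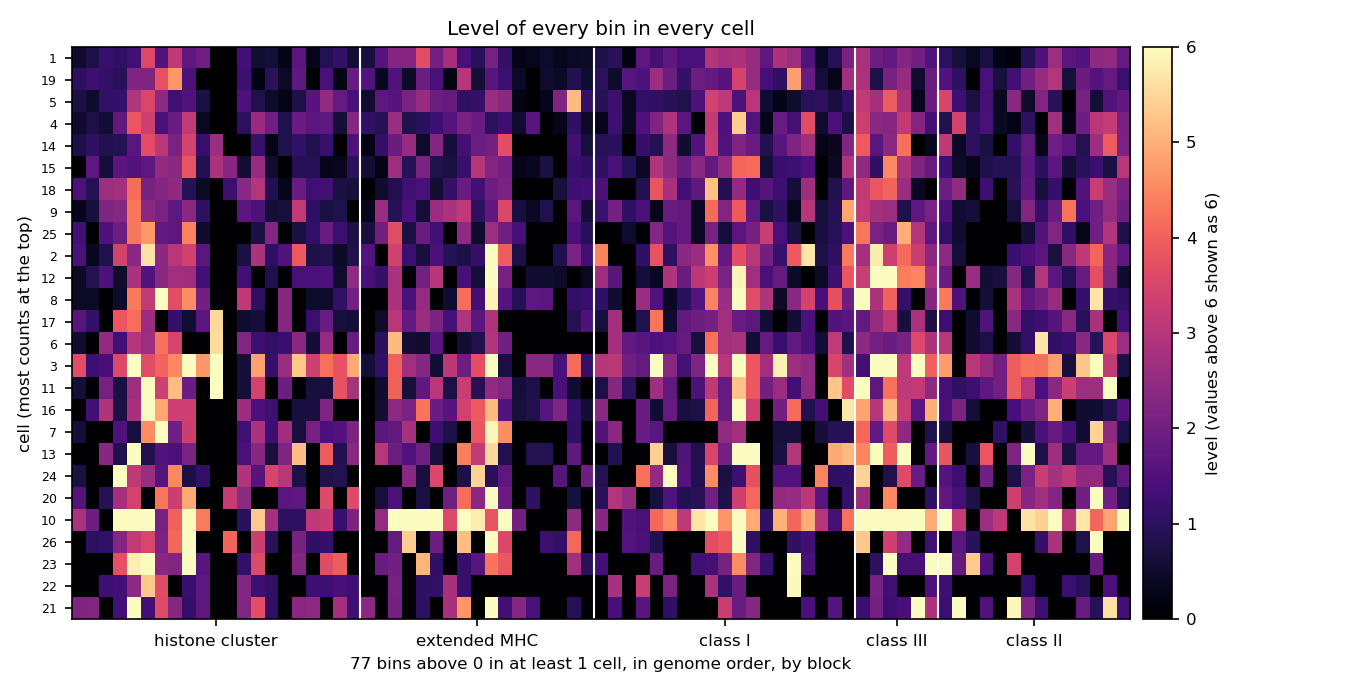
Level of each of the 77 bins (columns, genome order, white lines between blocks) in each of the 26 cells (rows, most counts at the top), with values above 6 drawn as 6. Cells 3 and 10 are bright across most bins, and a dark band of olfactory receptor bins runs through most cells at the right of the extended MHC.

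Within the histone block the signal was concentrated at the large group of histone genes and the butyrophilin genes beside it. The 6 bins of landmark histone genes averaged 2.41 ± 1.11 against 1.49 ± 0.544 over the other 15, and were higher in 24 of 26 cells. In the lowest cell they stood at 1.28, in the median cell at 2.12 and in the highest at 5.67. H2AC1, a histone gene and the first gene of the block in gene order, falls among the other 15. Those start with bins at 0.896 ± 0.918 and 0.698 ± 0.663, each positive in 8 cells. The histone genes lie in separate groups that were not equally marked. The bin of H1-4, at 26100001 to 26200000, ran from 0.69 to 9.63 with a median of 3.17 and averaged 3.74 ± 2.05, positive in 25 cells. The next bin, with the linker histone gene H1-3, averaged 3.80 ± 2.57 and was positive in 24. The bin of H1-1, which also holds the iron regulator gene HFE, was lower at 2.29 ± 2.11 (19 cells). The bin of H2BC11, at 27100001 to 27200000, averaged 2.02 ± 1.46 (18 cells). The far group was lower still. The bins of the H2B gene H2BC13 and of H1-5, at 27700001 to 27900000, averaged 1.14 ± 1.18 and 1.48 ± 1.21 and were positive in 11 and 15 cells.

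The butyrophilins are immunoglobulin-family membrane proteins, some of which present signals to gamma-delta T cells. The RefSeq table lists 6 of their genes in this block, and those without a landmark here were not placed in bins and can lie among the others. The 2 bins of landmark butyrophilins, at 26300001 to 26500000, averaged 2.87 ± 1.13 against 1.64 ± 0.658 over the other 19 bins. They were higher in 22 cells. BTN3A2's bin averaged 2.96 ± 1.57 and that of BTN3A1 and BTN2A1 2.78 ± 1.26, each positive in 25 cells. Together with the bin that follows they completed the longest run of bins positive in at least 21 cells, 5 bins from 26100001 to 26600000. That run averaged 3.30 ± 1.11, with a lowest cell at 1.70, a median of 2.84 and a highest cell at 5.86, so every cell lay above 1. The 3 bins before the main histone group hold the phosphate transporter gene SLC17A1, the ubiquitin ligase gene TRIM38 and, by gene order, the histone gene H2AC1. These bins averaged 0.896 ± 0.476. The 6 bins from H1-1 on averaged 3.13 ± 1.11 and exceeded them in all 26 cells. These spans were chosen after their values were seen.

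Signal was hard to read in the middle of the histone block. The bins at 26700001 to 26800000 and 26900001 to 27000000 had recovered expectations of 10.8% and 26.3% of the median bin. They held 7 and 5 counts in all cells, and the bin between them was 0 in every cell. The level of 1.35 ± 2.97 at the first rests on 6 cells above 0, and the second, at 0.42 ± 1.08, was above 0 in 4.

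The extended MHC was divided between a marked part and a part with little signal. Up to 28400000, zinc-finger transcription factor genes predominate. The 4 zinc-finger bins, with ZNF165, ZKSCAN4 and ZKSCAN3, averaged 1.77 ± 0.992 against 1.39 ± 0.625 over the rest of the block, higher in 20 cells. Signal was highest at the ubiquitin ligase gene TRIM27. Its bin, at 28800001 to 28900000, had a median of 2.93 and averaged 3.86 ± 2.42, positive in 23 cells, and only 1 cell had no signal there.

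The olfactory receptor bins at the end of the block were low. The 6 bins from 29000001 to 29600000 averaged 0.65 ± 0.429 (SD, n = 26), with 2 cells at 0, a median of 0.597 and a highest cell at 1.89. The other 11 bins of the block averaged 1.93 ± 0.937 and were higher in all 26 cells, also without cells 3 and 10 (24 of 24). The bins of OR2W1, OR2J2, OR14J1 and OR12D2 averaged 0.43, 0.47, 0.43 and 0.50, and were positive in 3, 4, 4 and 6 cells. OR2H1's bin was the exception among them, at 1.45 ± 1.32, positive in 16 cells and above OR12D2's in 20. The bin of OR2H2 was at 0.62 ± 0.57. Apart from these bins, the olfactory receptor gene OR2B6 at the start of the block was also in a low bin, at 0.45 ± 0.64 and positive in 5 cells. The receptor gene OR2B2 is the last gene of the histone block in gene order. The last bin of that block, H1-5's, was not low, at 1.48 ± 1.21 and positive in 15 cells.

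Of the 5 pairs of spans compared, the one on either side of the edge between TRIM27 and the receptors had the largest ratio. The 4 bins before it (28600001 to 29000000) averaged 2.64 ± 1.22 and the 4 after it (29000001 to 29400000) 0.46 ± 0.405, a 5.77-fold difference present in all 26 cells. The stretch after it held 94 counts, with 6 cells at 0. This edge was picked after the values were seen.

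Olfactory receptor clusters on other chromosomes were low too. On chromosome 11 the bins from 4300001 to 6200000 averaged 0.60 ± 0.224 and those from 55000001 to 56600000 averaged 0.39 ± 0.224. On chromosome 1 those from 247500001 to 248800000 averaged 0.72 ± 0.354. None of the 3 differed from the receptor bins of the MHC in 21 cells. The MHC receptor bins were higher in 10, 18 and 8 cells. The mean differences were 0.05 ± 0.456, 0.26 ± 0.465 and -0.07 ± 0.537, so each spread was larger than its mean. Without cells 3 and 10 they were -0.02, 0.23 and -0.13.

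The bins of class I genes were marked unequally. The HLA-E bin, at 30400001 to 30500000, was among the 8 highest of the region, with a median of 3.27, a mean of 3.47 ± 2.21 and a positive value in 24 cells. HLA-E presents leader peptides to natural killer cells. The bin of HLA-B and the stress ligand gene MICA averaged 1.39 ± 1.49 and was below HLA-E's in 22 cells. HLA-C's averaged 0.71 ± 1.03, positive in 5 cells, and was lower in 24. HLA-F's bin, shared with the myelin gene MOG, averaged 1.14 ± 1.08 and that of HLA-G, a class I gene of the placenta, 1.22 ± 1.10.

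The peak of the block, and of the whole region, was the bin of the housekeeping gene TUBB. TUBB's bin, at 30600001 to 30700000, ran from 1.22 to 9.73 with a median of 3.59 and averaged 4.27 ± 2.49. It was the only one of the 77 positive in all 26 cells. The bin of ABCF1, a translation factor gene, averaged 2.17 ± 0.98 (22 cells) and was above 0 in every cell. The pair averaged 3.22 ± 1.55, against 1.63 ± 0.695 over the other 17 bins of the block, and was higher in 25 cells. It holds the region's highest bin, so that difference was in large part set by TUBB's bin. Alone, ABCF1's bin had a lower mean than those of HLA-E (3.47), IER3 (2.63) and MICB (2.20). The run from HLA-E to IER3, an early response gene, covered 4 bins from 30400001 to 30800000. It averaged 3.14 ± 1.38, above 1 in all 26 cells, with the lowest at 1.30. Next to it the bin of the collagen receptor gene DDR1 was at 1.03 ± 0.99 and that of POU5F1, the pluripotency factor OCT4, further along, at 1.83 ± 1.53.

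**Figure D4:**
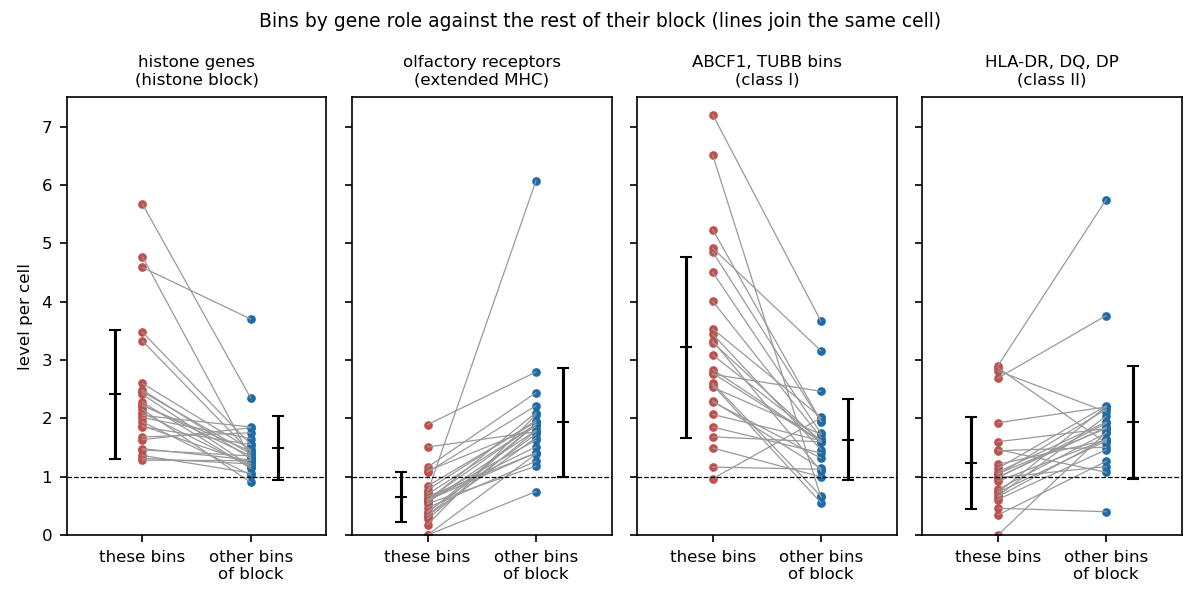
Level per cell of bins grouped by the genes they hold (red) and of the other bins of the same block (blue), with lines joining the same cell and the mean and SD in black. Landmark histone gene bins are higher in 24 of 26 cells, olfactory receptor bins lower in all 26, the ABCF1 and TUBB bins higher in 25, and the HLA-DR, DQ and DP bins lower in 22.

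Class III had no low bin. The TNF bin, at 31500001 to 31600000, which also holds the lymphotoxin genes, averaged 3.75 ± 2.77 (median 3.19, positive in 24 cells). That of the heat-shock genes HSPA1A and HSPA1B averaged 3.75 ± 2.13 (median 3.50, positive in 25) and was above 0 in every cell. HSPA1A and HSPA1B are near-identical copies, so reads could be shared between them, but both lie in this bin. BAG6, a chaperone gene, and CSNK2B, a kinase subunit, share a bin at 3.05 ± 2.85. The bin of EHMT2, the histone methyltransferase G9a, was at 2.89 ± 2.02. At the class II side the values were lower. The bin of the complement genes C4A and CFB averaged 2.09 ± 2.12, with 7 cells at 0, and that of TNXB, a matrix protein gene, 2.32 ± 2.20.

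Class II had its lowest bins around the DR genes. The 5 bins of HLA-DR, HLA-DQ and HLA-DP genes averaged 1.23 ± 0.796, with a median of 1.01, against 1.93 ± 0.966 over the other 9 bins, and were lower in 22 cells. With summed counts over summed expectation this held in 20 cells. HLA-DRB1's bin, at 32500001 to 32600000, averaged 0.45 ± 0.80 from 15 counts, with 16 cells at 0, and its expectation was 65.8% of the median bin. HLA-DRA's bin averaged 1.03 ± 0.99, and that of BTNL2, a butyrophilin-like gene, 0.789 ± 1.204. The bin of HLA-DQA1 and HLA-DQB1 was higher, at 1.61 ± 1.55. It was above HLA-DRB1's in 18 cells and below it in 5. HLA-DQA2's bin averaged 1.90 ± 1.68 and that of HLA-DPA1 and HLA-DPB1 1.17 ± 1.23.

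Genes of antigen processing lie beyond HLA-DQ. The bin of TAP1, PSMB8 and PSMB9, which encode the peptide transporter and immunoproteasome subunits, averaged 1.854 ± 1.499, positive in 19 cells, near HLA-DQA2's. The bin of HLA-DMB and the chromatin reader gene BRD2 averaged 2.186 ± 1.505 (21 cells). The bin of RPS18, a ribosomal protein gene, with the peptide-loading gene TAPBP and the histone chaperone gene DAXX, was the highest of the block at 3.01 ± 2.19 (21 cells). The 3 bins just named and the 3 others beyond HLA-DP, which hold no processing gene named here, averaged 2.15 ± 1.19, against 1.33 ± 0.759 over the other 8, and were higher in 22 cells. Without cells 3 and 10 the groups of bins kept their sides: histone genes were higher in 22 of 24 cells, butyrophilins in 21, the ABCF1 and TUBB bins in 23 and the 6 bins last given in 20, and the HLA-DR, DQ and DP bins were lower in 20. The first bin of the block, with the receptor genes AGER and NOTCH4, was at 2.42 ± 2.09 (22 cells), level with the last bin of class III at 2.32, which was the higher in 14 cells. The limit between these blocks, set by position, was not a step in these bins. After the bin of AGER and NOTCH4, levels fell to 1.27 ± 1.61 in the next bin and 0.789 ± 1.204 in BTNL2's. At the other limits, the last histone bin (1.48) was above the first of the extended MHC (0.448) in 18 cells. The last bin of the extended MHC (0.619) was above the first of class I (1.14) in 6 cells, and the last of class I (2.20) above the first of class III (3.75) in 7.

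Ranked by the ratio over each cell's own mean, the 8 highest bins of the region were those of TUBB, TRIM27, H1-3, TNF, H1-4, HSPA1A with HSPA1B, HLA-E and the bin at 26500001 to 26600000. The last of these averaged 3.22 ± 2.43. They lie in 4 of the 5 blocks. The 8 lowest were the thinly covered bin at 26900001, those of OR14J1, OR2W1, HLA-DRB1, OR2B6, OR2J2 and OR12D2, and the bin at 29800001 to 29900000, which averaged 0.60 ± 0.78. Olfactory receptor bins thus made up 5 of the 8.

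Promoters of the landmark genes differed mainly between the lowest bins and the rest. CG was counted in the 250 bases before each start, for 62 of 73 landmark genes found in the table. The median was 12.5 (3 to 31) for the 18 promoters in bins positive in at least 21 cells, 11 for 37 in the bins between and 1 (0 to 15) for 7 in bins positive in at most 5 cells. That last group includes the olfactory receptor genes OR2B6, OR2W1, OR2J2 and OR14J1, with 0 to 2 CG. Its upper end is HLA-C, with 15 CG in a low bin. Over all promoters of the table the median was 11. By family, 14 of 16 olfactory receptor genes of the region were found, with a median of 1 CG and at most 3. The median was 8.5 for 50 of 55 histone genes and 3 for 16 of 19 HLA genes. Among histone promoters, 28 (56.0%) hold TATAAA on the gene's strand and 43 (86.0%) hold CCAAT on either strand. The shares over all promoters are 6.80% and 32.0%. CCAAT was found in 14 of the 16 HLA promoters. These are letters in a window and not sites measured here.

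The blocks of the region varied together across cells, mainly through cells 3 and 10. Over 26 cells the Pearson correlation between the levels of 2 blocks ran from 0.684 to 0.867 over the 10 pairs, with a median of 0.81. Spearman's rho ran from 0.251 to 0.605, for example 0.251 for the histone cluster with class I and 0.486 for class III with class II. Cells 3 and 10 were also the 2 cells farthest from the median of every block set on the first axis. Without them Pearson's r was between 0.049 (histone cluster with class I) and 0.521 (histone cluster with class II), with a median of 0.39, and class III with class II gave 0.464. Windows of the same lengths and distances on other autosomes had median correlations between 0.141 and 0.316 in the same 24 cells. Many such window pairs correlated as strongly as the blocks. The share at or above the observed r ran from 13.6% (extended MHC with class III) to 70.1% (histone cluster with class I). Levels of 1 cell share its library, its depth and its autosomal mean, so these values are descriptions and carry no p-value.

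Of the 6 stretches set against it, the region correlated most with its flank towards the centromere. Its level correlated with that of the 3 Mb after class II at r = 0.906 (rho 0.642), and at 0.742 (rho 0.544) without cells 3 and 10. The corresponding values without these cells were 0.426 for the rest of the short arm, 0.399 for the 3 Mb before the histone cluster, 0.195 for the long arm, 0.495 for chromosome 17 and 0.530 for chromosome 19. In cell 3 the rest of the short arm was raised to 2.56 and the region to 3.48. In cell 10 the rest of the arm was at 1.86 and the region at 4.38, with class III at 9.06 and the extended MHC at 4.18. In cell 22 the region stood at 0.847 and below the rest of its arm at 1.19, with the histone cluster at 1.26 and class II at 0.420. The same cell was the lowest of the 26 for the 3 Mb after class II (0.514), the 3 Mb before the histone cluster (0.269), chromosome 17 (0.897) and chromosome 19 (0.664).

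**Figure D5:**
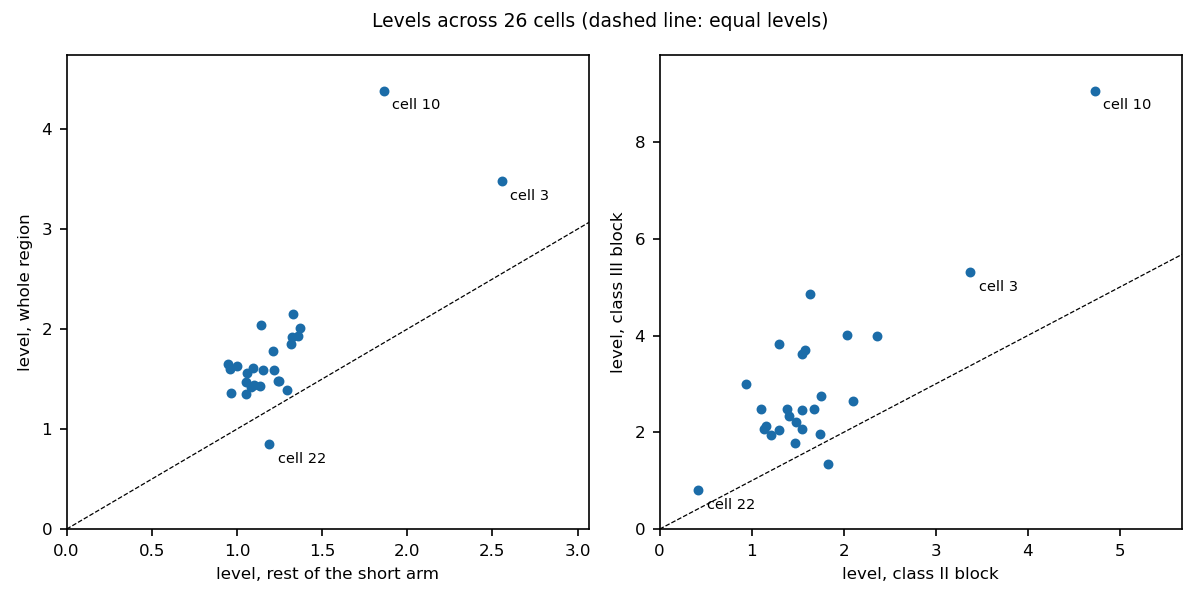
Levels in 26 cells, 1 point per cell, with the dashed line at equal levels. Left: the whole region against the rest of the short arm, where 25 cells lie above the line and cell 22 below. Right: class III against class II, where 25 cells lie above the line and cells 3 and 10 extend the cloud.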

How the data were processed

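Per the submitters' processing notes, cutadapt and Bowtie2 2.1.0 were used with hg19. Read counting, bin masking and the making of the expectation were not given in the sources used here. In the file the authors deposited a linear ratio for each 100 kb bin in each cell, taken as observed over expected because the file is labelled so and cell means lie near 1. Of 30376 bins, 3792 had no value and 253 were 0 throughout, leaving 26331.

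Ratios rise in steps, from which whole counts and each bin's relative expectation were recovered (largest deviation 6.44e-08, tolerance 0.001). Differences were placed on a side at 21 of 26 cells. Pairs of blocks were compared as log2 differences and other sets as differences of levels. The stretch without values from 58800001 to 61800000 separated the arms. Bins named are the 8 highest, the 8 lowest, those at block edges and those of landmark genes, of which some are not reported here. The region, lists and comparisons were chosen with earlier results of these data known. The spans, runs, promoters and omission of cells 3 and 10 were chosen after their values were seen. Scripts were tested on simulated counts and ran under Python 3.11.15, using scipy 1.17.1, numpy 2.4.6, matplotlib 3.10.9 and pandas 2.3.3.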

Additional observations from a re-analysis of the deposited data

How the results depend on the processing

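Levels and differences of the region, blocks and groups of bins that lay on a side kept it under the alternatives in all but 7 recomputations, and none of those changed sign. The 7 exceptions fell on class III and the region against the 3 Mb after class II, class I and class II against the rest of the short arm, and the HLA-DR, DQ and DP bins, as given above. Some pairs under 21 cells passed it under an alternative: the histone cluster over the extended MHC (22 cells without bins of low expectation, 21 with summed counts), class I over class II (21 on the log2 scale and 21 without edge bins), class I over the extended MHC (17 of 20 without the 6 cells of lowest coverage) and the zinc-finger bins (17 of those 20, and 22 of 26 on the log2 scale). The HLA class I gene bins also passed, below the rest of their block in 21 cells with summed counts and in 20 of 25 without cell 22. For the log2 alternative, log2 of the ratio plus 0.1 was averaged over bins and turned back into a ratio. The autosomal bins it was set against were averaged likewise. The levels and differences that follow are therefore not log2 values, and each moved by more than 1 SD. Class III went to 4.94. Its differences from the rest of the short arm and the long arm became 3.61 and 4.03. That from the 3 Mb after class II became 1.98. Class I minus the rest of the arm became 1.08 and the region minus the 3 Mb after it -0.781. Differences from the rest of the block became 2.23 for histone genes, 3.73 for butyrophilins, 1.40 for zinc-finger genes, 4.22 for ABCF1 and TUBB and 1.95 for the 6 bins of processing genes and beyond. Bins positive in at least 21 cells numbered 40 at a ratio of 0.5 and 3 at 2 (17.8% and 0.460% of all bins), and bins positive in at most 5 numbered 1 and 27 (6.86% and 75.1%), or 4 after thinning to 20000 counts (19.4%). The median block correlation was 0.388 without cells 3 and 10 and 0.499 after division by the rest of the short arm. With both changes it was 0.332, from -0.156 to 0.559. Mean levels of single bins stayed within 1 SD in all 385 recomputations, a loose limit, since these SDs were often near the mean itself. Of 135 for bins that lay on a side of 1, 14 lost it, in 11 bins and with none passing to the other side: 8 after thinning (among them the bins of OR2W1, OR2J2, OR14J1 and HLA-E), 5 without cells 3 and 10 (among them OR2B6's) and 1 without the 6 cells of lowest coverage. Single bins rest on 5 to 287 counts over all cells. Stretches were paired within each cell, and no pairing of cells between groups exists, since the cells form 1 group.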
